A study of Mus musculus with 4 samples.

Results

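The cells described here are 82 of 2015 kept cells in a pair of libraries of Lats-deleted mouse small intestine that hold at least 4 summed counts of Dcn, Col1a1, Col1a2 and Col3a1. Dcn encodes decorin, a proteoglycan that binds collagen fibres, and the collagen genes encode the chains of fibrillar collagens I and III. All 82 come from a study of 4 single-cell RNA libraries with 3304 kept cells, where a barcode was kept from 1000 counts and 300 genes upward if its mitochondrial share was no more than 30%. They are called Dcn and collagen cells below, because they were put forward as stromal-like and the data only partly carry that name.

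The 2 Lats-deleted libraries come from adult C57BL/6J mice of genotype Lrig1-CreERT2 Lats1fl/fl Lats2fl/fl. The 2 control libraries come from adult C57BL/6J mice of genotype Lats1fl/fl Lats2fl/fl, which have no Cre. Both groups received 2 mg of tamoxifen into the peritoneum and were harvested 7 days later, so the controls share the floxed alleles and the drug but not the recombinase. Cre activity here is limited to cells in which the Lrig1 promoter is or was active, a promoter known from crypt stem cells. LATS1 and LATS2 are Hippo kinases that keep the co-activators YAP and TAZ out of the nucleus. After EDTA, removal of the smooth muscle layer and a collagenase and dispase digest, 5000 cells per condition were sorted as positive for the epithelial surface protein EpCAM and negative for CD45, TER119 and DAPI, and were then encapsulated with inDrop v2. A gate of this kind should hold few stromal cells. Nothing in the labels ties the libraries to different animals. Any p-value then reflects only how far these libraries differ, which may be technical.

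Fibroblasts of the gut wall lie beneath the epithelium, make interstitial collagen and decorin, and supply the crypts with growth signals. Mesothelial cells form the thin sheet over the outer surface of the gut. They are of mesodermal origin yet carry keratins, together with mesothelin (Msln), uroplakin 3b (Upk3b) and the transcription factor Wt1, and they also make matrix. Saa3 encodes a serum amyloid of the acute phase response that several stromal and epithelial cells make during inflammation.

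Of the 82 Dcn and collagen cells, 74 were in Lats-deleted library 1 and 8 in Lats-deleted library 2. They made up 10.2% of 726 kept cells in library 1 (exact binomial 95% interval 8.09 to 12.6) and 0.621% of 1289 in library 2 (0.268 to 1.22). Neither control library held such a cell. In these, 0 of 774 and 0 of 515 kept cells allow shares of up to 0.475% and 0.714% by the same exact interval. The mean share was 5.41 percentage points higher in the Lats-deleted libraries, with both above both controls. The two-sided exact permutation test over the 4 libraries gave p = 0.333, which is the smallest it can give with 2 libraries a group. The cells were proposed from these same libraries, so the difference is no independent evidence. More such cells in the tissue and more of them passing the sort cannot be told apart.

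Most of the cells lay far above the threshold on the quantity that chose them, though the rule itself sets them apart on it. Rule counts per cell ran from 4 to 217 with a median of 41 in library 1, and from 6 to 136 with a median of 35.5 in library 2. The highest rule count in any control cell was 2. Just inside the threshold, at 4 to 9 counts, were 4 cells of library 1 and 1 cell of library 2. Just outside it, 1 cell in each library had 3 counts, and 4 and 6 cells had 2. In library 1, the 4 cells just inside had a median of 26.5 counts of the epithelial list (E-cadherin, claudins, keratins and the like), against 3 in the 70 cells with 10 or more rule counts.

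Library totals ran from 2247269 to 9191916 counts. The selected cells held 197876 counts in library 1 and 34681 in library 2, so every level from library 2 rests on 8 cells, and 3 counts there equal 86.5 CPM (counts per 1000000). Their median depth was 2467.5 counts per cell in library 1 and 4376.5 in library 2, against 4012 and 3848 in the other kept cells of those libraries. Scrublet called 0 of the 82 as doublets, but it called 0 of 726 cells in library 1, so it says little there. Pairs of libraries shared 298 to 1030 barcode names, and 4 to 12 among kept cells. The name of 1 selected cell of library 1 was also kept in control library 1, and no name was selected in both Lats-deleted libraries. The groups differed in sex-linked RNA. Xist was at 9.35 and 6.51 CPM in the controls, and in the Lats-deleted libraries at 576 and 317 CPM in the selected cells and 644 and 506 CPM in the others. The 4 Y-linked genes summed to 93.5 and 108 CPM in the controls and to 30.3 and 0 CPM in the selected cells. Genotype and these sex-linked levels cannot be told apart, and the levels of the selected cells were near those of their own library.

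Leiden clustering of the kept cells of the Lats-deleted libraries, without the 4 rule genes, still placed 79 of the 82 cells (96.3%, 89.7 to 99.2) together. That cluster, 1 of 13, held 71 cells of library 1, 8 of library 2 and no other cell. The 3 cells left outside were from library 1, with 4, 7 and 5 rule counts. They held 34, 111 and 19 epithelial-list counts and 0, 2 and 0 counts of the mesothelial list. The cluster was made from genes of the same cells, so it is a description and not a test.

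All ratios below compare CPM of summed counts in the selected cells with those in the other kept cells of the same library. Brackets hold exact 95% intervals, which cover counting error only. Since the cells were chosen from their own counts, no ratio is a test. A gene is called higher when it is at least 4-fold higher in each library, with at least 10 counts in the selected cells of each, and lower by the mirror rule. By that rule 92 of 578 measurable genes (15.9%) were higher in both libraries and 38 of 410 (9.27%) were lower. Within library 1 alone the shares were 17% higher and 14.8% lower, and within library 2 alone 23.8% and 14.4%. A gene is measurable for a higher call only through its 10 counts in the selected cells, which favours genes high there. The rule also used this contrast, so nothing is read from how a list compares with these shares. The median log2 ratio of all measurable genes was 0.10 in library 1 (4529 genes) and -0.0042 in library 2 (701 genes). Centring each library on its genes with enough counts moved log2 ratios by 0.27 and 0.21 and gave 83 higher and 48 lower genes. TMM scaling moved them by 0.17 and 0.65 and gave 76 and 62.

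Dcn (chr10:97479609-97518143, plus strand, GRCm38, which is mm10) was the leading gene of the rule. It had 2459 counts in the selected cells of library 1, or 12427 CPM, against 2.97 CPM in the other cells. Library 2 had 159 counts of it, 4585 against 2.93 CPM, and in the controls 0.624 and 1.63 CPM. Per cell it ran from 0 to 86 counts with a median of 29.5 in library 1, and from 2 to 69 with a median of 13.5 in library 2. Col3a1 (chr1:45311538-45349706) was at 3351 and 1672 CPM, Col1a2 (chr6:4504814-4541544) at 1936 and 2826 CPM, and Col1a1 (chr11:94936224-94953042) at 652 and 1125 CPM. The other cells of both libraries were between 2.93 and 5.18 CPM for each of the 4 genes. The median cell had 3 of the 4 genes in library 1 and 4 in library 2. These values chose the cells and are given as description.

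The mesothelial list holds 10 genes, and 9 of the 10 were at least 4-fold higher in library 1. In library 2, 5 of the 6 measurable members were, and the same 5 were higher in both: Upk3b, Upk1b, Lrrn4, Gpm6a and Nkain4. The median log2 ratio of measurable members was 7.44 in library 1 and 6.45 in library 2. Upk3b (chr5:136038496-136046487), a membrane protein of the mesothelial and bladder surface, had 210 counts in library 1 and 21 in library 2. It stood at 1061 against 4.46 CPM in library 1, a 238-fold ratio (141 to 433), and at 606 against 13.6 CPM in library 2, 44.4-fold (26.1 to 72.6). Lrrn4, a leucine-rich repeat protein used as a mesothelial marker, was at 743 against 2.67 CPM and 375 against 2.93 CPM, 278-fold (142 to 619) and 128-fold (57.0 to 279). Control cells were at 4.36 and 6.51 CPM for Lrrn4.

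Nkain4 (chr2:180934772-180954699), which encodes a protein that binds the sodium pump, was at 677 and 404 CPM, 570-fold (217 to 2121) and 585-fold (184 to 2439). Gpm6a (chr8:54954843-55060871), a membrane glycoprotein also known from neurons, was at 793 and 404 CPM, 445-fold and 468-fold. Wt1, the transcription factor that marks the mesothelium, had 56 counts in 31 cells of library 1, at 283 against 2.67 CPM, 106-fold (51.9 to 243). In library 2 its 6 counts fell below the call rule, at 173 against 2.07 CPM. Aldh1a2, which makes retinoic acid, was at 293 and 231 CPM, 197-fold (79.8 to 630) in library 1 and 267-fold (77.1 to 1038) in library 2, where 8 counts are too few for a call. Muc16 had 27 and Bnc1 had 13 counts in library 1, 230-fold (57.7 to 1992) and 111-fold (25 to 1009), and each had 1 count in library 2. Upk1b was the least clean member: 293 against 53.2 CPM in library 1, 5.51-fold (4.02 to 7.45), and 404 against 6.73 CPM in library 2, 60.0-fold (30.1 to 113).

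Msln (chr17:25748613-25754378), the gene of mesothelin, was the exception. It was at 1642 CPM in the selected cells of library 1 and at 2508 CPM in the others, a ratio of 0.655 (0.584 to 0.732). In library 2 it was at 894 and 1044 CPM, a ratio of 0.856 (0.581 to 1.22), while the controls were at 1.25 and 0 CPM. Msln was thus above the controls in both the selected and the other cells of the Lats-deleted libraries, and does not separate the selected cells from the rest. Thinned to 1000 counts a cell, it was found in 71.6% of the selected and 72.5% of the other cells of library 1 (90.5% and 86.0% unthinned, median depths 2467.5 and 4012). For Upk3b the thinned shares were 58.1% and 0% of 652 cells, which allows up to 0.564% (77.0% and 1.84% unthinned). For Lrrn4 they were 50.0% and 0.153% (78.4% and 1.38% unthinned).

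The mesothelial and the rule genes picked nearly the same cells. Leaving out Msln, the other 9 mesothelial genes summed to a median of 11 counts a cell (0 to 30) in the selected cells of library 1 and 8 (0 to 42) in library 2. Their summed level was 4346 against 68.7 CPM in library 1 and 2653 against 29.3 CPM in library 2, and the controls were at 21.8 and 26.9 CPM. In library 1, 75 cells had at least 4 such counts, and 63 of these were Dcn and collagen cells, which is 84.0% of the former and 85.1% of the latter. In library 2 the overlap was 7 of 9 (77.8%) and 7 of 8 (87.5%). No control cell reached 4 such counts. The 12 cells of library 1 outside the rule held 71 mesothelial-list counts, of which 66 were Upk1b and 4 were Upk3b. They had a median of 180.5 epithelial-list counts, and 0 counts of Wt1, Lrrn4, Bnc1, Muc16, Gpm6a and Nkain4. The 2 cells of library 2 outside the rule held 6 Upk3b and 4 Upk1b counts and 0 of the same 6 genes. In the plot of rule-gene against mesothelial-list counts, these cells lie at the left edge, apart from the Dcn and collagen cells.

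**Figure D1:**
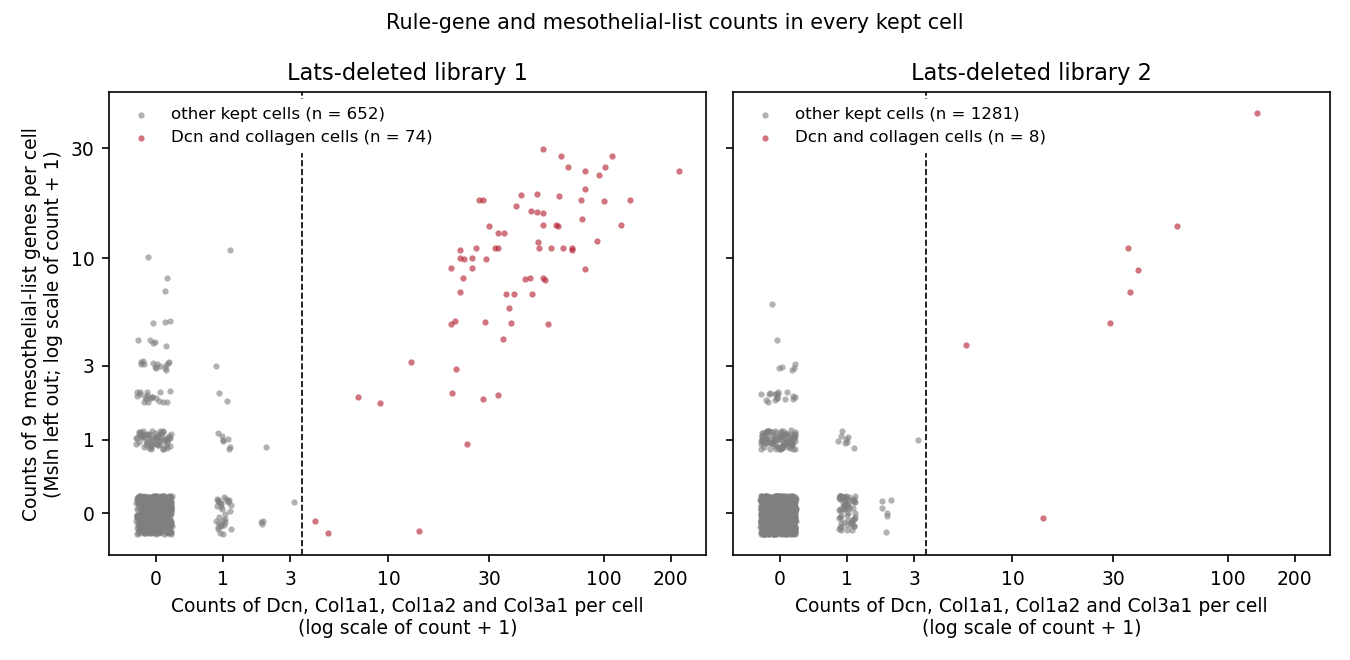
Each point is a kept cell of Lats-deleted library 1 (left) or 2 (right), by its summed counts of Dcn, Col1a1, Col1a2 and Col3a1 (x axis) and of 9 mesothelial-list genes with Msln left out (y axis), both on a log scale of count + 1 with points spread slightly to show overlaps. The dashed line is the threshold of the rule, and the red Dcn and collagen cells (74 and 8) lie mostly in the upper right, with 63 and 7 of them at 4 or more mesothelial-list counts.

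The fibroblast list gave a mixed picture. In library 1, 12 of its 13 measurable members were at least 4-fold higher, and in library 2 3 of 3, with the same 3 in both: Col6a1, Col6a2 and Loxl1. The median log2 ratio was 4.92 in library 1 and 7.38 in library 2, and the summed level of the 22 genes was 2709 against 146 CPM and 2047 against 141 CPM. Col6a1 and Col6a2, chains of the microfibrillar collagen VI, were at 586 and 394 CPM in library 1 and at 346 and 433 CPM in library 2. Their ratios were 197-fold and 111-fold in library 1, and 167-fold and 109-fold in library 2. Loxl1, which crosslinks elastin, was at 455 and 346 CPM, 765-fold (206 to 6415) and 334-fold (116 to 1085). Col5a2 was at 187 CPM, 89.9-fold (39.6 to 239), and the microfibril gene Fbn1 at 202 CPM, 52.3-fold (27.4 to 107), both in library 1.

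Several other fibroblast genes were at or near 0 counts. Lum, a proteoglycan of fibroblast matrix, had 1 count in library 1 and 0 in library 2. Dpt, Col6a3, Mfap4, Twist2 and Pi16 had 0 counts in both. Tcf21 had 1 and 0 counts, Mmp2 3 and 0, and Pdgfrb 3 and 0. Col5a1, Fbln1, Mfap5, Pcolce and Cygb were called in library 1 with 12 to 26 counts each, and had 0 to 5 counts in library 2. Pdgfra, the receptor that marks most gut fibroblasts, was called there too and had 14 counts in 8 cells of library 1 and 4 counts in 3 cells of library 2. That is 70.8 against 4.76 CPM in library 1, 14.9-fold (6.73 to 32.5). Thy1, also called in library 1, had 10 counts in 8 cells and 4 counts in 4 cells. Of the common chains of collagen VI, RNA of Col6a1 and Col6a2 was thus found and that of Col6a3 was not, at this depth.

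**Figure D2:**
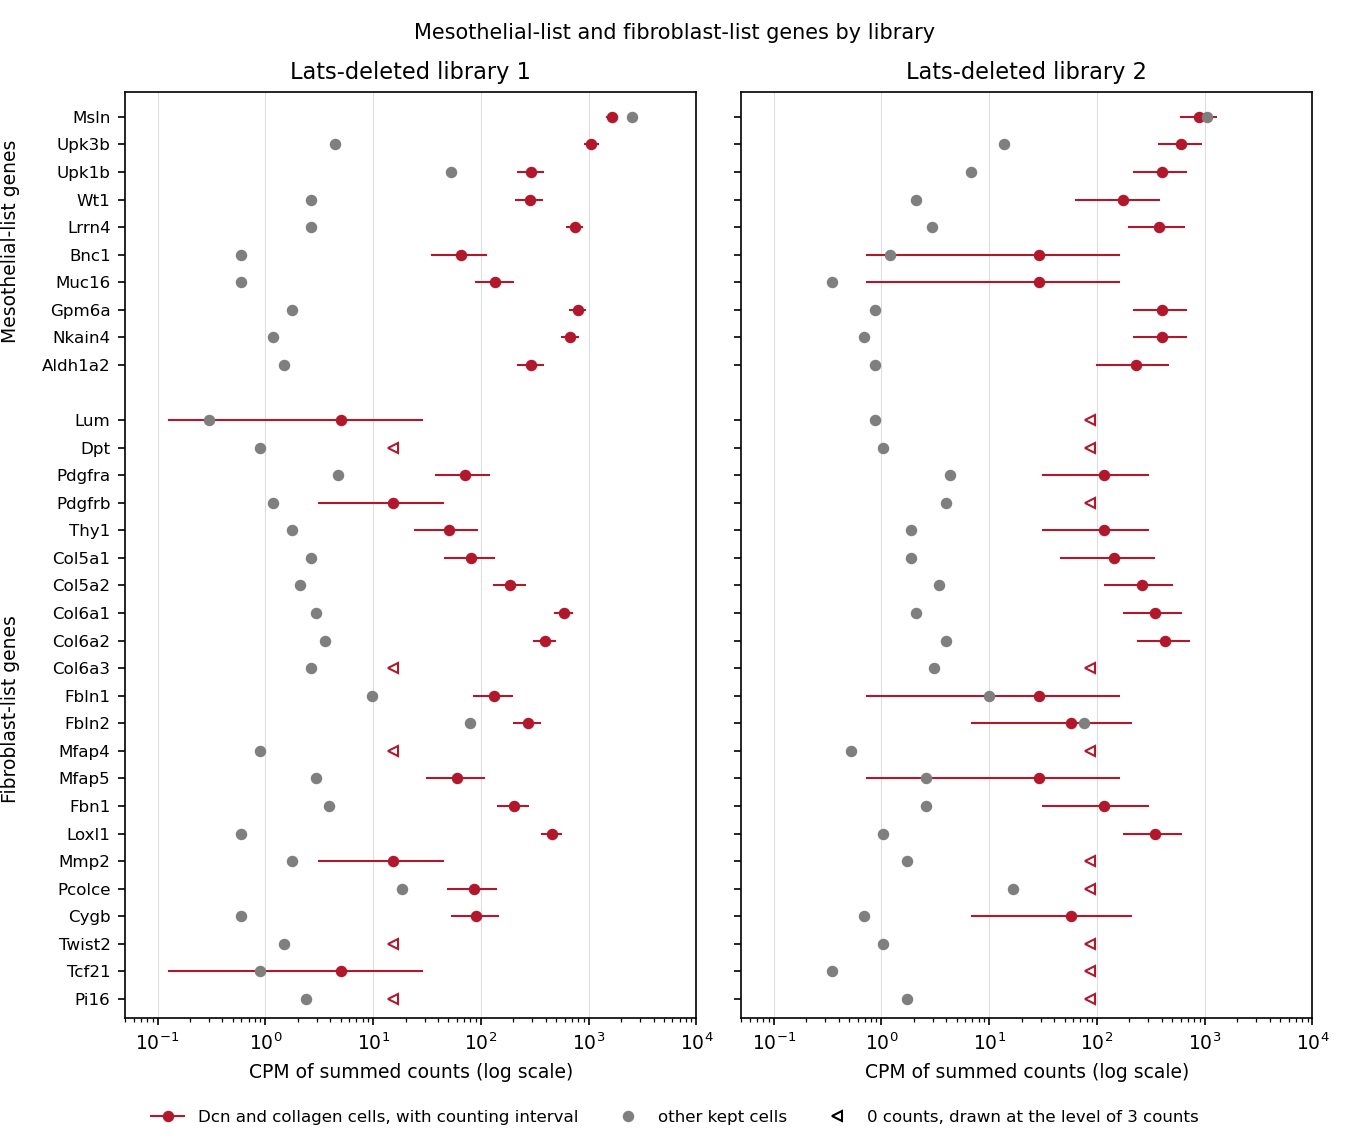
CPM of summed counts on a log axis for the 10 mesothelial-list genes (top) and the 22 fibroblast-list genes (bottom) in Lats-deleted library 1 (left) and 2 (right). Red points with exact 95% counting intervals are the Dcn and collagen cells, grey points are the other kept cells, and open triangles mark 0 counts, drawn at the level of 3 counts. Upk3b stands at 1061 against 4.46 CPM in library 1, Msln at 1642 against 2508, and Dpt, Mfap4, Twist2 and Pi16 at 0 counts in both libraries.

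Of the genes behind the label stromal-like, Dcn and the fibrillar collagens chose the cells, so their levels are no support for it. Col6a1, Col6a2 and Loxl1 were not used by the rule and were higher in both libraries. In library 1, 12 of the 22 fibroblast markers were called at least 4-fold higher than in the other cells. Only 13 of the 22 had the 10 selected counts that a call needs, and 5 had 0 counts. All 10 mesothelial markers had those counts, 9 of 10 were called, and none had 0 counts. Since a marker becomes measurable through its counts in the selected cells, these numbers are no test. Which cell type these are is not settled by the lists, and no cell type name is given to them.

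The defining genes of other cell types were at or near 0. Of the smooth muscle and pericyte list, Myh11 had 0 counts in both libraries and Acta2 had 4 and 0. Kcnj8 was called in library 1 (10 counts) and Des in library 2 (10 counts, of which 8 were in 1 cell). The summed list was at 273 against 223 CPM in library 1 and 404 against 166 CPM in library 2. The endothelial list was at 323 against 95.7 and 288 against 76.8 CPM. In library 1 it was led by Esam, a junction protein, with 30 counts, and by the growth factor receptor Kdr with 18 counts, 63.8-fold and 61.2-fold. The defining endothelial genes Cdh5 and Pecam1 had 0 and 1 counts in library 1 and 0 and 1 in library 2. The leukocyte list was at 60.6 against 174 CPM and 86.5 against 138 CPM, with Ptprc at 2 counts in each library. The erythroid list had 0 counts, and the glial and interstitial list was at 283 against 291 CPM and 115 against 316 CPM.

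Among the genes the rule did not use, C3 (chr17:57203970-57228136), the central protein of the complement cascade, had the highest ratio when both libraries were summed. It had 3824 counts in 72 of 74 cells of library 1, at 19325 against 5.94 CPM, 3251-fold (2102 to 5329). Its 562 counts in library 2 lay in 8 of 8 cells, at 16205 against 5.01 CPM, 3237-fold (2229 to 4878). The controls were at 3.12 and 0 CPM. Per cell C3 ran from 0 to 235 counts with a median of 40 in library 1. Slpi (chr2:164354070-164389095), a secreted inhibitor of leukocyte proteases, was at 11204 and 13004 CPM against 3.57 and 5.35 CPM in the other cells, 3141-fold (1795 to 6089) and 2430-fold (1688 to 3619). Each of the 2 genes was thus at a high level in the selected cells of both libraries and near the floor in the other cells.

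Of the complement list, 5 of 5 measurable members were higher in both libraries, and 8 of 8 in library 1. A member is measurable only through its counts in the selected cells, so these full scores are no test of the list. The median log2 ratio was 8.21 in library 1 and 8.11 in library 2. C1s1, a protease that starts the classical pathway, was at 1385 and 1413 CPM, 1165-fold and 2046-fold. Serping1, its inhibitor, was at 1966 and 952 CPM, 827-fold and 276-fold. C4b was 270-fold and 88.1-fold higher. Factor B (Cfb), which drives the alternative pathway, was at 2052 against 369 CPM and 3633 against 208 CPM. Its ratios of 5.56 (4.96 to 6.23) and 17.5 (14.4 to 21.0) were smaller, with the other cells holding it too. C1rb and C1s2 were also higher, 231-fold and 240-fold for C1rb and 317-fold (103 to 1585) and 262-fold (92.9 to 798) for C1s2. They are near copies of C1ra and C1s1, so how reads were shared among them is uncertain.

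The matrix genes beyond the rule were likewise high. Sparc (chr11:55394500-55423183), a collagen-binding glycoprotein, was at 3588 against 7.43 CPM in library 1 and at 6805 against 10.7 CPM in library 2. That is 483-fold (324 to 751) and 636-fold (479 to 855). Of the list of basement membrane and other matrix, 4 of 4 measurable members were higher in both libraries (3 when ratios were centred), and 14 of 17 in library 1, with median log2 ratios of 3.34 and 5.35. Fstl1 was 24.5-fold and 35.9-fold higher. Fibronectin (Fn1) was at 495 and 404 CPM, 9.52-fold and 9.78-fold, but in library 1 its 98 counts lay in 16 cells, with 81 of them in 5 cells. Col4a2 had 19 and 10 counts.

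Of the matrix remodelling list, 3 of 5 measurable members were higher in both libraries (2 under TMM scaling), and 8 of 12 in library 1. Timp2, an inhibitor of matrix metalloproteinases, was at 1855 against 199 CPM and 894 against 166 CPM, 9.33-fold and 5.38-fold. Serpinh1, the collagen chaperone, was 47.5-fold and 32.7-fold higher. Plaur, the urokinase receptor, was lower in library 1, at 60.6 against 353 CPM. Aebp1, a collagen-binding carboxypeptidase-like protein, had 128 counts in library 1 against 0 in 652 other cells, which makes it at least 726-fold higher. Library 2 had it at 577 against 0.691 CPM, 835-fold (280 to 3360).

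Binding proteins of insulin-like growth factors were also higher. Of the list of IGF and TGF-beta signalling, 3 of 5 measurable members were higher in both libraries, namely Igfbp3, Igfbp4 and Igfbp6, with median log2 ratios of 5.41 and 4.93. Igfbp6 (chr15:102144362-102149511) had 240 counts in 63 cells of library 1, at 1213 against 0.594 CPM, where the others had 2 counts and the lower bound of the ratio is 559. In library 2 it was at 433 against 1.04 CPM, 418-fold (153 to 1313). Igfbp4 was 42.5-fold and 30.5-fold higher.

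Further genes with large ratios in both libraries were Ptgis, prostacyclin synthase, at 1289 and 721 CPM, 723-fold and 696-fold, and Lgals1, a galectin of mesenchymal cells, at 1688 and 1932 CPM. Rarres2, the chemoattractant chemerin, was at 1501 and 375 CPM, 842-fold and 167-fold. Vimentin (Vim), the intermediate filament of mesenchymal and mesothelial cells, was at 1865 against 9.51 CPM and 2076 against 3.97 CPM, 196-fold and 523-fold. Gas1 was at 1233 and 288 CPM, 830-fold and 104-fold. Dmkn was 381-fold and 457-fold higher, Steap4 216-fold and 334-fold, Chil1 140-fold and 292-fold, and Itm2a had 43 and 17 counts. Of the list of mesenchymal transcription and adhesion, 4 of 5 measurable members were higher in both libraries (Vim, S100a4, Lgals1 and Gas1).

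Signals of the crypt niche could be measured in library 1 only. There 6 of 7 measurable members were higher, with a median log2 ratio of 5.88. Rspo1, which amplifies Wnt signals, had 56 counts in 31 cells and 0 in the 652 others, at least 317-fold higher. Library 2 had 4 counts. Wnt5a was at 192 against 3.27 CPM, 58.7-fold (29.4 to 127). Wnt4 was at 253 against 32.7 CPM, 7.73-fold, and 22 of 74 cells held it. Dkk3 had 27 counts and Sfrp1 12.

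Of the transcription factors that mark mesenchyme of the gut tube, 4 of 6 measurable members were higher in library 1 (3 when ratios were centred). In library 2 only 1 member was measurable, and it was not called. Foxf1 and Nkx2-3 had 14 counts each, in 12 cells each, and 5 and 1 counts in the other cells. Hoxa5 had 25 counts, 60.7-fold (25.5 to 166). Osr1, a zinc finger factor of lateral mesoderm, is not a member of this list and was named after its values were seen. In library 1 it had 265 counts in 47 cells, at 1339 against 1.19 CPM, 1127-fold (435 to 4165). The 5 counts of library 2 all lay in 1 cell.

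Saa3 (chr7:46711998-46715700) separated the libraries. In library 1 it was found in 20 of 74 selected cells (27.0%, 17.4 to 38.6), with 301 counts and 1521 CPM against 0.594 CPM. In library 2 it was found in 8 of 8 (63.1 to 100), with 491 counts and 14158 against 6.73 CPM. The ratios were 2559 (702 to 21228) and 2103 (1516 to 2993). Thinned to 1000 counts, the shares were 23.0% and 100%, against 0.153% of the other cells of library 1 (unthinned 0.307%) and 0.703% of those of library 2 (unthinned 2.50%). In library 2 the lowest of the 8 cells had 15 counts, the median 43.5 and the highest 142. Saa3 was thus rare in the other cells, yet not found in most selected cells of library 1.

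Other acute phase and cytokine genes had fewer counts. Vcam1, an adhesion molecule for leukocytes, was higher in both, at 91.0 against 5.35 CPM and 577 against 5.01 CPM, 17.0-fold and 115-fold. Lcn2, Csf1 and Has1 were called in library 1, with 29, 38 and 27 counts. Their 7, 4 and 5 counts in library 2 are too few for a call, and their levels there, 202, 115 and 144 CPM, stood beside 147, 192 and 136 CPM in library 1. In library 2, Cxcl5, Cxcl10 and Ccl2 were called, with 12, 10 and 15 counts against 1, 1 and 3 counts in library 1. Cxcl5 was called in opposite directions, 14.2-fold lower (2.52 to 562) in library 1 and 4.82-fold higher (2.47 to 8.51) in library 2. Ccl2, which attracts monocytes, was 835-fold higher (236 to 4500) in library 2, but 12 of its 15 counts lay in 1 cell. Of the interferon response list, Ifitm2 and Ifitm3 were higher in both libraries (1 of them under TMM scaling). Ifitm3 was at 1258 against 90.6 CPM and at 1845 against 44.4 CPM, 13.9-fold and 41.6-fold.

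Targets of YAP and TAZ, the co-activators that LATS kinases restrain, went both ways. In library 1, 3 of 10 measurable members were higher (Axl, Igfbp3 and Rbms3) and 4 of 9 were lower (Ctgf, Cyr61, Ankrd1 and F3), with a median log2 ratio of -1.47. When ratios were centred, 5 were lower. In both libraries 1 of 3 measurable members was higher, Igfbp3, and 1 of 2 was lower, F3, the gene of tissue factor. The median in library 2 was 0.44. Ctgf was at 55.6 against 837 CPM in library 1, 15.1-fold lower (8.40 to 30.2), where the controls were at 3.74 and 0 CPM. In library 2 it was at 404 and 507 CPM, with 12 of 14 counts in 1 cell. Axl, a receptor tyrosine kinase, was at 328 against 58.8 CPM and 231 against 9.32 CPM.

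Amotl2, another target, was at 258 against 712 CPM in library 1 and 144 against 337 CPM in library 2, above the controls at 18.7 and 6.51 CPM. Yap1 had 9 and 3 counts and the TAZ gene Wwtr1 25 and 4 counts. Lats1 had 2 and 0 counts in the selected cells, and Lats2 had 9 and 5, at 45.5 against 28.8 CPM and 144 against 20.5 CPM. Controls were at 20.6 and 32.6 CPM for Lats1 and at 8.11 and 9.77 CPM for Lats2. Lrig1 had 7 counts and 1 count. The tags come from the 3′ ends of transcripts, so these values do not check whether the floxed exons were removed in the selected cells.

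Genes of the fetal-like and regenerative list, which the injured gut epithelium turns on, were mostly lower in library 1. There 10 of 15 measurable members were, with a median log2 ratio of -2.79, and 2 of 10 in both libraries (Mal and Serpinb9b; 5 under TMM scaling). Ly6a, the gene of Sca-1, was at 243 against 2518 CPM and 288 against 1077 CPM, 10.4-fold and 3.73-fold lower, with controls at 1.87 and 0 CPM. Clu was at 1572 and 1817 CPM, 3.35-fold and 2.54-fold below the other cells, and the controls were at 6.86 and 7.33 CPM. S100a6 was 3.51-fold and 2.03-fold below.

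Cell division genes gave no call in library 1 (0 of 6) and 1 of 5 in library 2, Rrm2, which was lost under TMM scaling. Of the immediate early and heat shock genes, which dissociation induces, 3 of 12 were lower in library 1 (Fos, Atf3 and Ier2) and none was higher.

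The epithelial list was lower. In library 1, 17 of 17 measurable members were at least 4-fold lower, and 7 of 8 in library 2 and in both (8 under TMM scaling), with median log2 ratios of -3.47 and -2.82. Summed over the list, the level was 2330 against 25435 CPM in library 1 and 3691 against 19272 CPM in library 2. Cdh1, E-cadherin, was at 80.9 against 911 CPM and 86.5 against 1019 CPM, 11.3-fold (6.92 to 19.7) and 11.8-fold (4.03 to 57.1) lower. Of its 16 counts in library 1, 9 were in 1 cell. Cldn4, a tight junction claudin, was 16.1-fold and 9.38-fold (2.59 to 77.5) lower, and Cldn7 20.4-fold and 6.48-fold. Lgals4, a galectin of enterocytes, was 41.3-fold and 7.85-fold lower. The 74 selected cells of library 1 held 16, 12, 8 and 8 counts of Cdh1, Cldn4, Cldn7 and Lgals4. The 71 of them with more rule than epithelial counts held 1 count of each, or 5.29 CPM. The counts of these genes that remained in the selected cells of library 1 thus lay mostly in the few cells with more epithelial than rule counts. Without those cells the 4 genes were lower still, but the cells were set apart by epithelial counts that include these genes. The EpCAM gene, the marker of the sort, was not analysed here.

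Keratins were lower but not absent. Krt8 (115 counts in 38 cells of library 1) was at 581 against 9053 CPM, 15.6-fold lower (13.0 to 18.9), and at 923 against 7132 CPM in library 2, 7.73-fold (5.47 to 11.3). Krt18, its partner, was at 561 against 4742 and 663 against 3010 CPM, 8.45-fold and 4.54-fold lower. Krt19 was at 687 against 4143 and 1326 against 3522 CPM, 6.03-fold and 2.66-fold lower. Krt7 was at 359 against 3986 and 980 against 3560 CPM, 11.1-fold and 3.63-fold lower. Krt20, the keratin of mature enterocytes, had 1 count in each library, 136-fold (24.4 to 5380) and 24.1-fold (4.32 to 951) lower. Krt14 had 23 and 2 counts, and Krt23 had 4 and 1. Thinned to 1000 counts, Krt8 was found in 27.0% of the selected and 97.2% of the other cells of library 1 (51.4% and 98.9% unthinned), and Krt19 in 39.2% and 93.3%.

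RNA from burst epithelial cells can put keratin counts into any barcode. The ratios among epithelial genes in the selected cells were therefore set beside those in the other cells and in barcodes of under 500 counts. The comparison used the 71 selected cells of library 1 with more rule than epithelial counts, and was chosen after seeing the data. Per 100 counts of Krt8 these cells had 144 of Krt19, against 45.8 in the other cells and 32.6 in the small barcodes. For Krt18 the values were 104, 52.4 and 46.8, and for Krt14 27.4, 2.52 and 2.60. Msln was at 412 (318 to 540), 27.7 and 23.8, and Clu at 390, 58.1 and 62.9. S100a6 was at 1049, 166 and 221.

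In the other direction, Krt20 was at 0 counts (up to 4.11 per 100 Krt8), against 7.6 in the other cells and 10.2 in the small barcodes. Cdh1, Cldn4 and Lgals4 were each at 1.37 per 100 Krt8, against 10.1, 10.8 and 18.5 in the other cells. In the 7 such cells of library 2, Msln was at 127 (70.2 to 233) per 100 Krt8 against 14.6 in the others, Clu at 218 against 64.6 and Krt19 at 118 against 49.4. Krt18 there was at 36.4 against 42.2. With all 74 selected cells of library 1, Cdh1 was at 13.9 (7.69 to 23.6) and Cldn4 at 10.4 (5.24 to 18.9). Both were thus near the other cells. Lgals4 was then at 6.96 (2.93 to 14.2), Krt20 at 0.87 (0.0218 to 4.94) and Msln at 283 (228 to 353). The comparison left cells out by their epithelial counts, which include these genes except Msln. Nothing is therefore read from the low values of Cdh1 and Cldn4. The proportions in the selected cells thus differed from those of the other cells and of the small barcodes for Krt19, Msln, Clu and S100a6 in both libraries, as the plot of counts per 100 Krt8 shows. What share of the Krt8 counts came from free RNA was not tested.

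**Figure D3:**
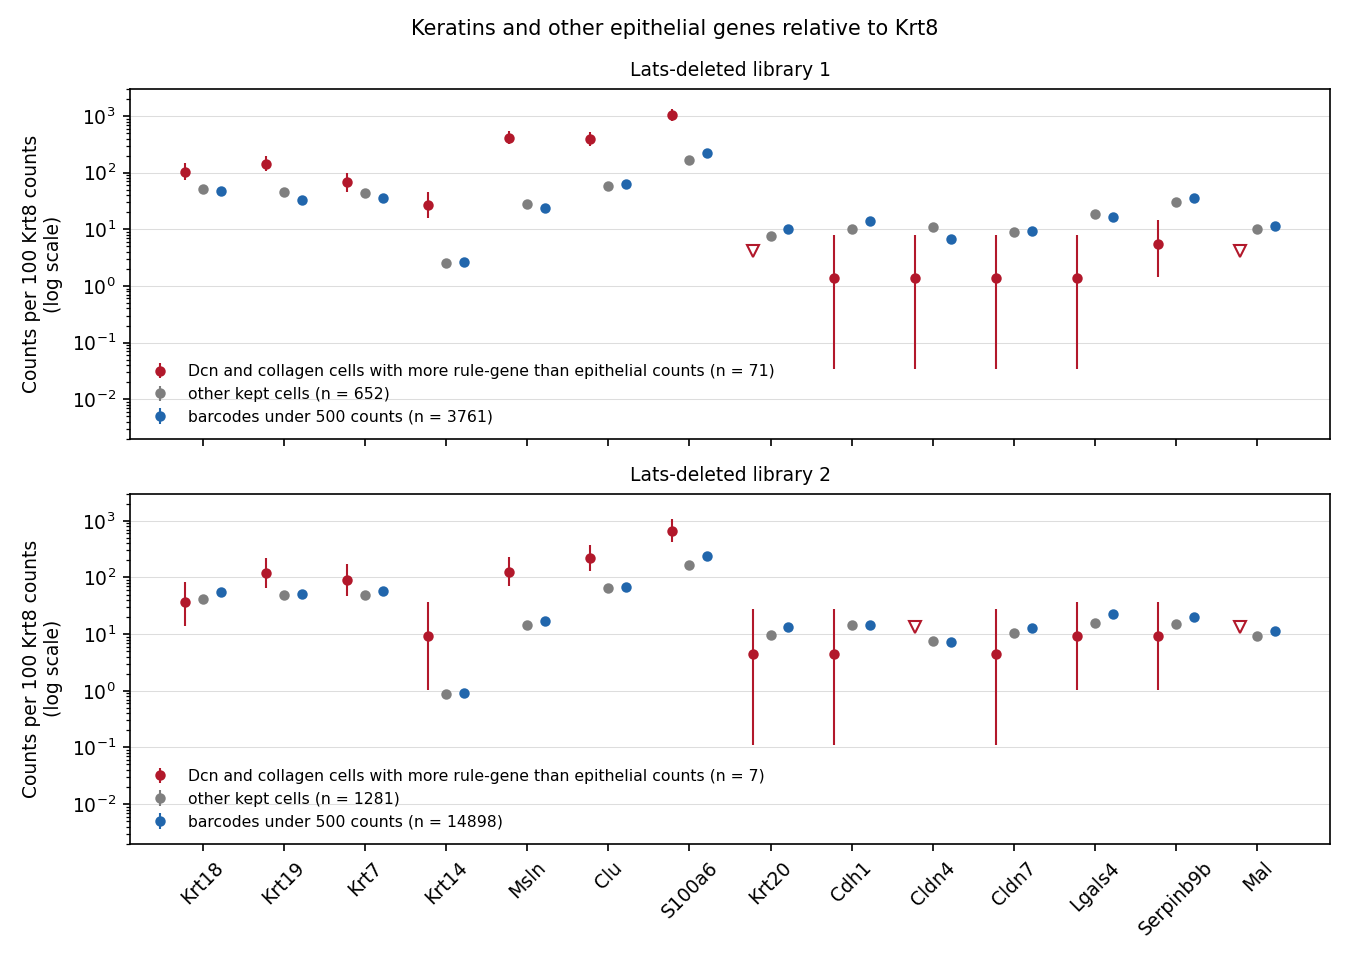
Counts per 100 Krt8 counts on a log axis for 14 genes in Lats-deleted library 1 (top) and 2 (bottom). Red points are Dcn and collagen cells with more rule-gene than epithelial counts (71 and 7), grey points the other kept cells and blue points barcodes of under 500 counts. Bars are exact 95% counting intervals, and open triangles are upper limits for 0 counts. In library 1 Msln stands at 412 in the red cells against 27.7 and 23.8, while Krt20 is at 0 counts.

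Among the 38 genes lower in both libraries were several that the gut lining is known for. Dmbt1, a mucosal scavenger protein, had 0 counts in library 1, at least 21.2-fold lower, and 2 in library 2, 18.1-fold (5.01 to 149). The detoxifying enzyme Gsta1 was 28.7-fold and 16.2-fold lower and Clca3b 54.5-fold and, on 1 count, 13.2-fold (2.36 to 520.5). The antimicrobial lectin Reg3b was at 55.6 against 2099 CPM and 28.8 against 817 CPM. Psca was 43.8-fold and 6.50-fold lower. Id1, a target of BMP signalling, was 16.9-fold lower (5.76 to 82.0) in library 1, and in library 2, at 0 counts, at least 4.30-fold. Sprr2a2 and Sprr2a3, near copies between which reads are uncertain, were 10.2-fold and 9.94-fold lower in library 1 and 28.4-fold and 24.1-fold in library 2. Of the enterocyte list, 7 of 7 members were lower in library 1, and Apob was lower in both. In library 2 the stomach genes Tff1, Tff2 and Cldn18 were lower too. Tff1 was at 173 against 6376 CPM there, while the other cells of library 1 had 3 Tff1 counts.

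Within library 1, the cells with Saa3 differed from those without. The 20 with Saa3 had a median of 2949.5 counts and the 54 without had 2341. Cells with a count of Gpx3 or Fmo2 were 15 of 20 and 12 of 54. Gpx3, a secreted glutathione peroxidase, was at 2671 against 364 CPM and Fmo2, a monooxygenase, at 1474 against 92.7 CPM. Slpi was at 21839 against 6832 CPM, C3 at 27650 against 15903 CPM, Cfb at 3938 against 1277 CPM and Prg4, lubricin of serosal and joint surfaces, at 1769 against 692 CPM. Genes that were lower with Saa3 were Col3a1, at 1648 against 4051 CPM, and Osr1, at 885 against 1526 CPM. Lgals1 was found in 9 of 20 and 47 of 54 cells, but its summed level was close, at 1578 (1271 to 1938) and 1733 CPM (1522 to 1965). Dcn was at 13200 and 12109 CPM, Sparc at 3660 and 3559 CPM, Msln at 1735 and 1605 CPM and Upk3b at 919 and 1120 CPM, so these differed far less. The genes were chosen after their values were seen, and cells of 1 library are not replicates.

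Across the 74 cells, levels of Saa3 and Gpx3 had a Pearson r of 0.69 (Spearman 0.62), Saa3 and Fmo2 0.68 (0.63), and Gpx3 and Fmo2 0.78 (0.74). Gpx3 and Lgals1 had an r of -0.62 (-0.56), and Osr1 and Mgp 0.50 (0.52). Saa3 and Dcn had 0.11, and Saa3 and the cell's total count 0.13. These are descriptions over cells that share 1 library. A group of cells with Saa3, Gpx3 and Fmo2 and little Lgals1 and Osr1 stands at the left of the map of levels by cell.

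**Figure D4:**
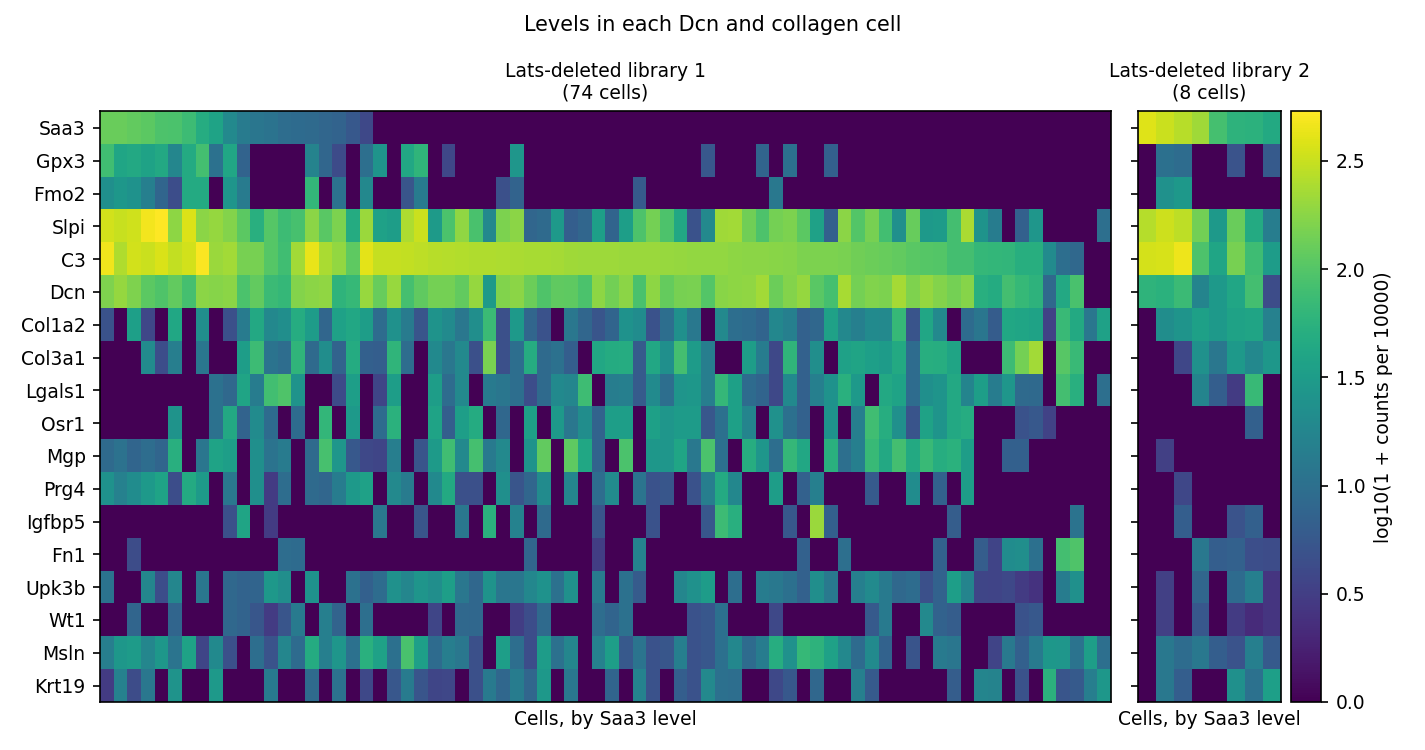
Colour gives log10 of 1 + counts per 10000 for 18 genes (vertical axis) in each of the 74 Dcn and collagen cells of Lats-deleted library 1 and the 8 of library 2 (horizontal axis), ordered by Saa3 level, and by C3 where Saa3 is 0. The 20 cells with Saa3 in library 1 hold most of its Gpx3 and Fmo2, and 8 of 8 cells of library 2 hold Saa3.

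The selected cells of the 2 libraries differed beyond counting error in several genes, named after their values were seen. Saa3 was 9.31-fold higher in library 2 (8.05 to 10.8). In the other cells it was 11.3-fold higher in library 2. That ratio rests on few counts, with Saa3 found in 2 of 652 other cells of library 1 and 32 of 1281 of library 2. Igfbp3 was 9.78-fold (4.86 to 20.5) higher in the selected cells of library 2, Vcam1 6.34-fold (3.18 to 12.7) and Timp3 3.71-fold (2.70 to 5.08). Their ratios in the other cells were 1.28, 0.936 and 0.592. The library 2 counts of these 3 genes lay in 3, 7 and 6 of the 8 selected cells. In library 1, Mgp, an inhibitor of calcification, was higher, at 2239 against 28.8 CPM, 77.6-fold (13.9 to 3074). Prg4 was 34.9-fold (6.19 to 1384), the growth factor Gas6 12.4-fold (5.98 to 31.0), Serpina3n 9.64-fold (4.08 to 29.9) and Osr1 9.29-fold (3.93 to 28.8) higher. With 1 library each and 8 cells in library 2, animal, sort and library cannot be told apart.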

How the data were processed

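Single-cell RNA was measured in 2 control and 2 Lats-deleted libraries. The values deposited by the authors are raw counts per barcode and gene symbol, per the file headers. Whether they are molecular identifiers is not given in the sources used here. Per the submitters' processing notes, the tools were RSEM 1.3.0, Bowtie 1.1.1.1 and SAMtools 1.3.1 and the build mm10, with no role or order. Of 25289 gene columns, 24560 (97.1%) matched GENCODE M21 on GRCm38, from which coordinates are taken as whole gene spans.

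Barcodes of 1000 or more counts, 300 or more genes and no more than 30% mitochondrial counts were kept, and cells were selected with at least 4 counts of Dcn, Col1a1, Col1a2 and Col3a1. The cells, the 24 gene lists and the tests were chosen with earlier results of these data known. Counts were summed per library and divided by their total (CPM). Ratios compare selected with other cells of 1 library. A call needs a ratio of 4 in both libraries and 10 selected counts in each, and for the call alone fewer than 3 counts were set to 3. Printed ratios use the counts as they are, and are bounds from 3 counts where 1 side is at 0. Lower calls need a level in the other cells at least 4 times the level of 3 selected counts. Genes named are the 24 with the highest and 10 with the lowest ratios, up to 5 per list, keratins, and markers at or near 0; those chosen after their values were seen are named as such or stand in the accounts of single cells and of the libraries. Epcam, Mki67 and 6 other listed genes were not analysed here. Some list members that were measured and counted are not reported here by name.

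Clustering used scanpy 1.11.5 and leidenalg 0.10.2 (2000 variable genes, 30 components, 15 neighbours, resolution 1, seed 1). Intervals are exact 95% Poisson or Clopper-Pearson intervals. The share of selected cells was compared with an exact permutation test. TMM factors from edgeR 4.0.16 were an alternative scaling. Scripts were tested on simulated data. Python 3.11.15 and R 4.3.3 were used.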

Additional observations from a re-analysis of the deposited data

Results flagged for a closer look

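Barcodes too small to be kept also held the genes of the rule, and more so in the Lats-deleted libraries than in the controls. In barcodes of under 500 counts, Dcn, Col1a1, Col1a2 and Col3a1 summed to 368 CPM in Lats-deleted library 1 (255 counts) and to 145 CPM in library 2 (421 counts). The controls were at 15.6 and 18.9 CPM there, with 9 and 10 counts. In barcodes of at least 500 but under 1000 counts the levels were 744 CPM (203 counts) and 136 CPM (51 counts), against 12.0 and 21.3 CPM in the controls, with 7 counts each. Of these barcodes, 15 and 14 in library 1 and 5 and 1 in library 2 held at least 4 rule counts, and 0 in the controls. Saa3 was at 31.7 and 302 CPM in barcodes of under 500 counts of libraries 1 and 2, at 98.9 and 149 CPM in those of at least 500 but under 1000, and at 0 in both controls. Whether these barcodes are small cells or free RNA was not tested.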

How the results depend on the processing

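With either Lats-deleted library left out, 8 to 74 cells remained (0.621% to 10.2% of kept cells); 74 of the 82 are from library 1. Every other setting gave 55 to 95 cells. Their share of kept cells, 3.51% to 4.67%, stayed within the exact binomial interval of the main share, 3.25% to 5.03%. The difference of the share between groups was 0.621 to 10.2 percentage points with 1 library left out. With the replicate block it was 5.41 percentage points with p = 0.5 (exact permutation). The replicate numbers were not taken as pairs, since deviations of same-numbered libraries had a correlation of 0.0951 over 9224 genes with 2 pairs only. The share in 1 cluster was 95.1% to 96.3% under all its settings.

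The 92 higher genes became 60 at a ratio of 8, 197 at 5 selected counts and 46 at 20. In single libraries they were 140 to 654. The 38 lower genes became 16 with a rule of 2 counts, 201 at a ratio of 2, 9 at a ratio of 8 and 62 under TMM, and 60 to 427 in single libraries. At 20 selected counts, 1 mesothelial gene (of 2 measurable) and 0 fibroblast genes (of 0) were higher. At 5 counts, 5 fibroblast and 8 complement genes were. In single libraries the mesothelial count was 5 to 9, fibroblast 3 to 12, complement 5 to 8 and epithelial (lower) 7 to 17. The epithelial count was 2 with a rule of 2 counts and 2 at a ratio of 8. Leaving out the 4 cells with more epithelial than rule counts, an alternative chosen after seeing the data, gave 78 cells, 85 higher and 40 lower genes, of which 25 were among the 38. Of the 54 named genes called in both libraries, 0 reversed in direction under the settings tried. Fewer selected counts make fewer genes measurable, and in library 2 the depth of 8 cells is the limit.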
